A study of Mus musculus with 6 samples.

Results

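The Aldh3 genes encode aldehyde dehydrogenases, enzymes that use NAD or NADP to oxidise aldehydes to carboxylic acids. Their products act mainly on medium- and long-chain fatty aldehydes and on the reactive aldehydes that form when membrane lipids are peroxidised. ALDH3A1 is best known as an abundant soluble protein of the mammalian corneal epithelium, is low in most other tissues, and also oxidises aldophosphamide, the aldehyde form of the anticancer drug cyclophosphamide. ALDH3A2 is the fatty aldehyde dehydrogenase of the endoplasmic reticulum, and its loss causes Sjögren-Larsson syndrome in humans. ALDH3B1 and mouse ALDH3B2 act on lipid-derived aldehydes at membranes and on lipid droplets.

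The genes were followed through all probes that the scanner output names Aldh3a1, Aldh3a2, Aldh3b1 or Aldh3b2, which gave 6 of the 55681 probes of the array for 4 of its 22328 named genes. Aldh3a1 and Aldh3b2 had 2 probes each, and Aldh3a2 and Aldh3b1 had 1 each. Of the 6 probes, 4 were well above background on at least 1 array and were among the 36110 probes kept for testing, while both Aldh3b2 probes were not well above background on any array.

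Total RNA came from cultures of mouse embryonic fibroblasts (MEFs) of the ICR strain, grown in serum-supplemented medium. The 6 groups were transfected and mock Per2m/m cells, which carry an altered form of the clock repressor gene Per2, transfected and mock Clk/Clk cells, described in the design text as mutant in Clock, and transfected and mock wild type cells. Transfected cells had received a vector expressing H-Ras, a small GTPase that is an oncogene when activated, and SV40T, a viral antigen that binds p53 and RB. Each group was 1 array, and the labels do not give the number of embryos, clones or cultures behind an RNA. For transfected Per2m/m cells the characteristics name both H-Ras and SV40T, while the source name leaves SV40 out. The series title names Aldh3a1 as a gene raised in oncogenic cells with faulty PER2, so its level in those cells is not independent evidence.

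The transfected Per2m/m array stood apart, with correlations of 0.852 to 0.890 with the other arrays across probes, against median correlations of 0.931 to 0.945 for each of the others. On it 49.3% of spots were well above background, against 53.5% to 57.3% on the others. Ddx3y and Eif2s3y, from the Y chromosome, were not well above background on the transfected Per2m/m array, against well above it on every other array. Xist, from the X chromosome, was not well above background there or on either Clk/Clk array, against well above it in mock Per2m/m and both wild type cultures. Fibroblast markers were well above background for 11 or 12 of 12 genes on every array, with Lum, a matrix proteoglycan, the gene not well above background on the transfected Per2m/m and transfected wild type arrays. Every Per2m/m response below rests on this array, and in such bulk RNA fewer cells of a type and less RNA per cell cannot be told apart.

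The 2 Aldh3a1 probes are nearly the same sequence, and their last bases are shown because the probes gave different readings. Probe A_55_P2101216 lies at chr11:61031857-61031916 on the plus strand of mm9, from position 1665 of the transcript the array design assigns to it. Probe A_55_P2065562 starts 7 bases further, at chr11:61031864-61031920 on the plus strand, from transcript position 1672, and its coordinates cover 57 of its 60 bases. Both probes share a run of 53 bases, and both hold the AATAAA hexamer typical of a polyadenylation signal, followed by 13 bases in the first probe and 20 bases in the second. Bases 31 to 60 of each probe are given 5′ to 3′, and the capitals mark the bases that the first probe lacks.
A_55_P2101216: gcacagagaccaataaaaaagcctctaaag
A_55_P2065562: gaccaataaaaaagcctctaaagAAAAGTC

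Aldh3a1 was far brighter in transfected Per2m/m cells than on any other array. Probe A_55_P2101216 had a processed signal of 38836 intensity units in transfected and 2019 in mock Per2m/m cells, 760 in transfected and 706 in mock Clk/Clk cells, and 1433 in transfected and 1718 in mock wild type cells. It was well above background on all 6 arrays. The error that the scanner software attaches to each of these signals was close to 0.1 of the signal, the multiplicative term of its error model. Over the other 5 arrays the highest level of this probe was 2.01 times the lowest, and over all 6 it was 49.8 times the lowest.

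On the log2 scale relative to the 75th percentile of each array, called the level here, the order of the arrays for this Aldh3a1 probe was 6.53 in transfected Per2m/m, 1.90 in mock Per2m/m, 1.81 in mock wild type, 1.18 in transfected wild type, 1.01 in transfected Clk/Clk and 0.89 in mock Clk/Clk cells. Repeated spots of a probe on 1 array had a median SD of 0.05 to 0.06, which gives a spot noise of 0.08 for the difference between mock Per2m/m and mock wild type cells. The gap of 0.10 between mock Per2m/m and mock wild type cells and that of 0.12 between transfected and mock Clk/Clk cells were close to that noise. No group had a repeat, so the spread between cultures is not known.

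**Figure D1:**
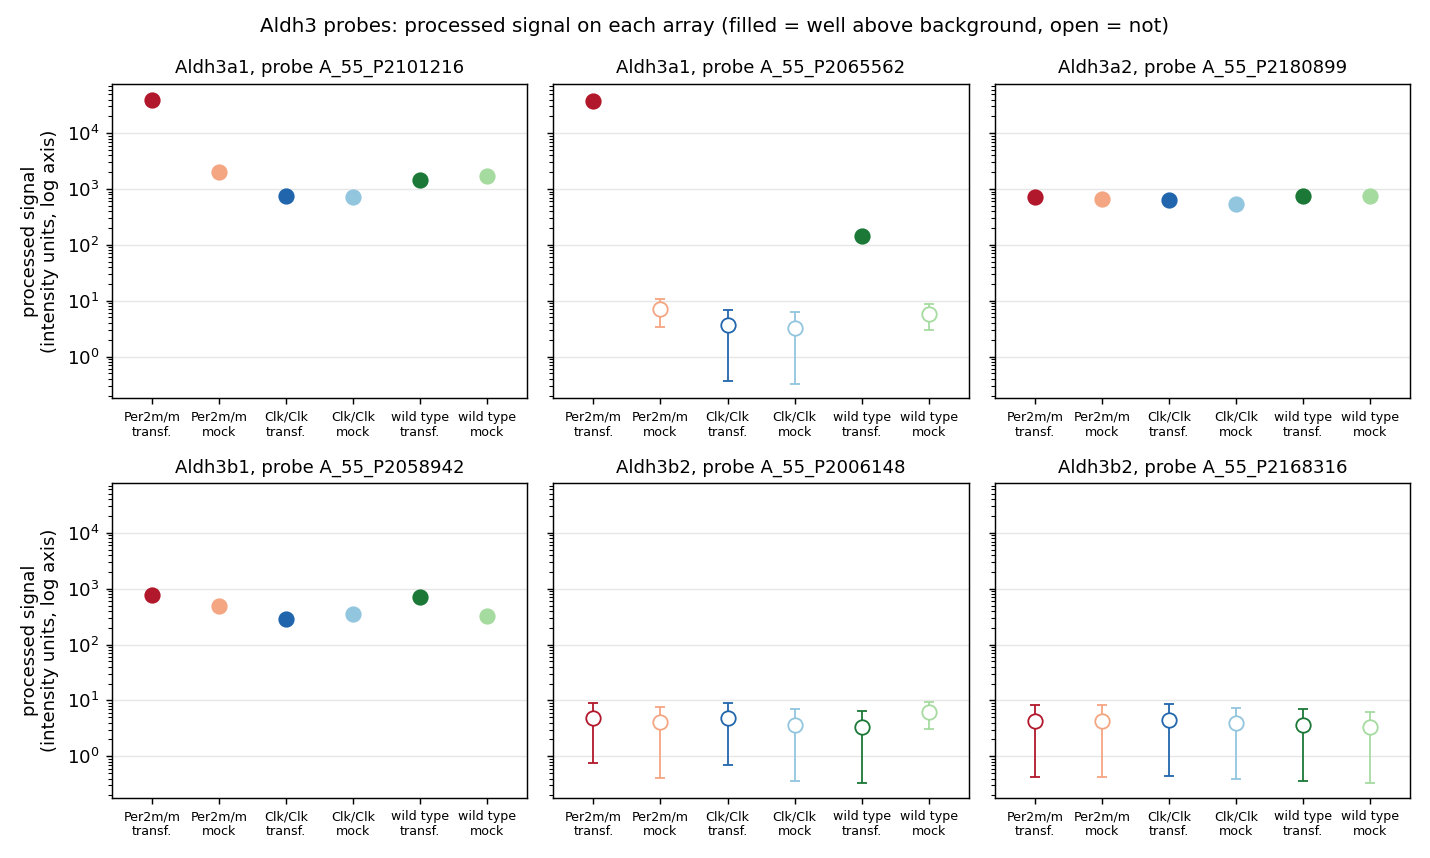
Processed signal (intensity units, log axis) of the 6 Aldh3 probes on each of the 6 arrays, with transfected left of mock and wild type last. Filled points were well above background, open points were not, and bars are the scanner software's error. Both Aldh3a1 probes reach 38836 and 37158 in transfected Per2m/m cells, while Aldh3a2 stays between 543 and 764 and both Aldh3b2 probes stay below 6.2.

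The response of a probe is its log2 difference between transfected and mock cells of 1 genotype, and it has no test because it comes from 2 arrays. For Aldh3a1 by probe A_55_P2101216 the response was 4.63 in Per2m/m cells (24.7-fold higher), 0.12 in Clk/Clk cells (1.09-fold) and −0.63 in wild type cells (1.55-fold lower). Among 25073 probes well above background on both Per2m/m arrays it ranked 105th from the highest. The same probe ranked 10319th of 28117 in Clk/Clk cells and 24472nd of 29169 in wild type cells, so it was in the upper tail of all probes in the Per2m/m pair alone.

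Probe A_55_P2065562 of Aldh3a1 had a clear signal on 2 of the 6 arrays. The signal was 37158 in transfected and 7.07 in mock Per2m/m cells, 3.62 in transfected and 3.26 in mock Clk/Clk cells, and 146 in transfected and 5.78 in mock wild type cells. It was well above background on only the transfected Per2m/m and the transfected wild type array, and the other 4 values lie in the background. With the dim array set at the lowest signal that counted as well above background, transfected Per2m/m cells were at least 2805-fold above mock ones. On the same terms transfected wild type cells were at least 8.81-fold above mock ones. These bounds depend on the processing. Over 4 alternative scalings or background corrections the response ranged from 9.45 to 13.0 in Per2m/m and from 1.34 to 4.61 in wild type cells. In Clk/Clk cells it was not measured on either array.

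The 2 Aldh3a1 probes thus disagreed on wild type cells, where the first read transfected cells 1.55-fold lower and the second read them at least 8.81-fold higher. They also disagreed on whether mock cells of any genotype had a signal. Among 321 pairs of probes on the array that carry the same gene name and share at least 40 bases by their coordinates, the median difference between the responses of both probes was 0.09 in Per2m/m, 0.06 in Clk/Clk and 0.08 in wild type cells. The Aldh3a1 pair differed by 6.83 in Per2m/m and by 3.77 in wild type cells, in each case the largest of the 321 pairs, with dim values set at the lowest signal well above background. A difference of 2-fold or more was seen in 12 pairs in Per2m/m cells and in 10 pairs in wild type cells. In Clk/Clk cells the second probe lay in the background on both arrays, so the Aldh3a1 pair has no difference there. Which transcript ends or other sequences each probe reads was not tested.

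Between genotypes, both probes placed transfected Per2m/m cells above transfected wild type cells. The difference was 5.35 (40.9-fold) by A_55_P2101216 and 8.58 (384-fold) by A_55_P2065562, which ranked 55th and 6th from the highest of 25598 probes measured on both arrays. Transfected Clk/Clk cells were 1.12-fold lower than transfected wild type cells by the first probe and at least 5.10-fold lower by the second. That bound too depends on the processing, as the difference by the second probe ranged from −5.23 to −1.08 over the 4 alternatives. In mock cells the first probe gave 0.10 for Per2m/m minus wild type and −0.91 for Clk/Clk minus wild type (1.88-fold lower), and the second was not well above background on any mock array. The comparisons share arrays: each mutant is set against the same wild type array, and each transfected array also enters a response.

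Aldh3a2, the fatty aldehyde dehydrogenase, kept nearly the same signal on all 6 arrays. Its probe A_55_P2180899 lies at chr11:61062365-61062424 on the minus strand of mm9, next to Aldh3a1, from transcript position 1503. The signal was 726 in transfected and 667 in mock Per2m/m cells, 625 in transfected and 543 in mock Clk/Clk cells, and 757 in transfected and 764 in mock wild type cells. The highest level was 1.45 times the lowest.

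In order, the levels of Aldh3a2 were 0.79 in transfected Per2m/m, 0.73 in transfected Clk/Clk, 0.64 in mock wild type, 0.51 in mock Clk/Clk, 0.30 in mock Per2m/m and 0.26 in transfected wild type cells. The gaps of 0.06 between transfected Per2m/m and transfected Clk/Clk and of 0.05 between mock Per2m/m and transfected wild type cells were below the spot noise of 0.08. The response was 0.49 in Per2m/m cells (1.40-fold), 0.21 in Clk/Clk cells and −0.38 in wild type cells (1.30-fold lower). The median response of all 36110 probes was 0.16 for Per2m/m and −0.04 for wild type cells, and the Aldh3a2 responses differed from these medians by less than 1.5-fold.

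The promoter of Aldh3a2 is shown because the study compares clock mutants and CLOCK acts through E-box elements. The sequence is the 250 bases before the gene start in RefSeq, at chr11:61267187-61267436 on the minus strand of GRCm38.p6, 5′ to 3′. Capitals mark an E-box (CACGTG) at bases −30 to −25 and a dioxin response element core (GCGTG, the letters that the aryl hydrocarbon receptor recognises) at bases −117 to −113.
Aldh3a2 promoter: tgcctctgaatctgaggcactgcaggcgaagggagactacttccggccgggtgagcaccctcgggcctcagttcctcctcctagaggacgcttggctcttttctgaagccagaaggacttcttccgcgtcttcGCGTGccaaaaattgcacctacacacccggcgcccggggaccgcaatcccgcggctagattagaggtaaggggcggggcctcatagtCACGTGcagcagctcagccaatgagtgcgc

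Of 32851 promoters of the same table, searched on both strands, 7.15% hold CACGTG and 32.4% hold GCGTG. Neither these motifs nor the antioxidant response element TGACNNNGC (12.4% of promoters), the octamer ATTTGCAT (1.74%) or the D-box TTATGTAA (0.938%) matched in the Aldh3b1 window, and the last 3 motifs did not match in the Aldh3a2 window. A match is a run of letters in this window and not a measured binding site. Aldh3a1 and Aldh3b2 promoters were not used here.

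Aldh3b1 had its highest level in transfected Per2m/m cells, 1.69-fold above transfected wild type cells, which came next. Its probe A_55_P2058942 lies at chr19:3913493-3913552 on the minus strand of mm9, from transcript position 1770. The signal was 785 in transfected and 485 in mock Per2m/m cells, 287 in transfected and 350 in mock Clk/Clk cells, and 700 in transfected and 322 in mock wild type cells. The transfected array was the brighter of the pair in Per2m/m and wild type cells and the dimmer in Clk/Clk cells.

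As levels, Aldh3b1 stood at 0.90 in transfected Per2m/m, 0.14 in transfected wild type, −0.12 in mock Clk/Clk, −0.16 in mock Per2m/m, −0.40 in transfected Clk/Clk and −0.61 in mock wild type cells. The gap of 0.04 between mock Clk/Clk and mock Per2m/m cells was below the spot noise, and every other gap in this order was above it. The response was 1.06 in Per2m/m cells (2.08-fold), −0.28 in Clk/Clk cells (1.21-fold lower) and 0.76 in wild type cells (1.69-fold). The Per2m/m value ranked 4254th of 25073 measured probes and the wild type value 3219th of 29169. It was 0.94 in Per2m/m cells with normexp background correction and 0.97 both with quantile normalization and in the authors' deposited table, all under 2-fold.

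Aldh3b2 was not detected. Probe A_55_P2006148, at chr19:3981588-3981647 of mm9, had signals of 4.83 in transfected and 4.03 in mock Per2m/m cells, 4.80 in transfected and 3.63 in mock Clk/Clk cells, and 3.36 in transfected and 6.18 in mock wild type cells. Probe A_55_P2168316, at chr19:3981606-3981665, shares 42 bases with it and ranged from 3.28 to 4.48. The lowest signal that counted as well above background was between 12.9 and 17.4 on the 6 arrays, so this gene has no level, order or ratio here.

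**Figure D2:**
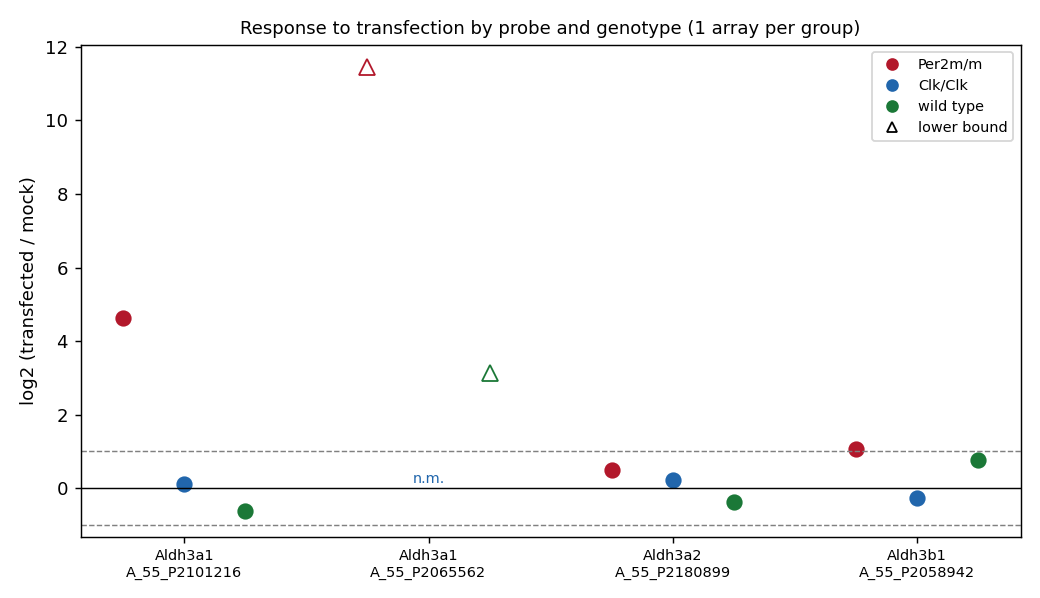
Response to transfection (log2 of transfected over mock) of the 4 Aldh3 probes that were well above background on at least 1 array, for Per2m/m, Clk/Clk and wild type cells. Open triangles are lower bounds, n.m. marks a pair measured on neither array, and dashed lines mark 2-fold. Aldh3a1 stands at 4.63 in Per2m/m cells, while the points of Aldh3a2 and Aldh3b1 lie between −0.38 and 1.06.

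With differences counted from 2-fold upwards where the brighter of both arrays was well above background and the dimmer taken as measured, 3 of the 4 kept Aldh3 probes were higher in transfected than in mock Per2m/m cells, namely both Aldh3a1 probes and Aldh3b1. Of all 36110 probes, 17.8% were higher and 35.5% differed in either direction in that pair. In Clk/Clk cells 0 of the 4 differed, against 7.96% of all probes. In wild type cells 1 of the 4 was higher, Aldh3a1 by A_55_P2065562, against 7.19% higher and 18.4% in either direction. Aldh3a1 gives 2 of these probes, which share their sequence and do not count as separate genes. A_55_P2065562 was kept only through the transfected Per2m/m and wild type arrays, so its counts here and between transfected cultures follow in part from that filter. Aldh3b1 passed 2-fold narrowly and fell under it with normexp, with quantile normalization and in the authors' deposited table.

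Between transfected cultures, 2 of the 4 probes were higher in Per2m/m than in wild type cells, both of Aldh3a1, where 14.0% of all probes were higher and 28.9% differed in either direction. In transfected Clk/Clk against wild type cells 1 of the 4 was lower, Aldh3a1 by A_55_P2065562, with 9.87% of all probes lower and 26.9% differing. Aldh3a2 was 0.53 and 0.47 above wild type in transfected Per2m/m and Clk/Clk cells, the second of which turned to −0.17 when arrays were scaled to their median. Aldh3b1 gave 0.76 for transfected Per2m/m and −0.54 for transfected Clk/Clk cells. In mock cells 0 of the 4 passed 2-fold in Per2m/m against wild type cells, where 9.79% of all probes did, and 0 in Clk/Clk against wild type cells, where 21.1% did.

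**Figure D3:**
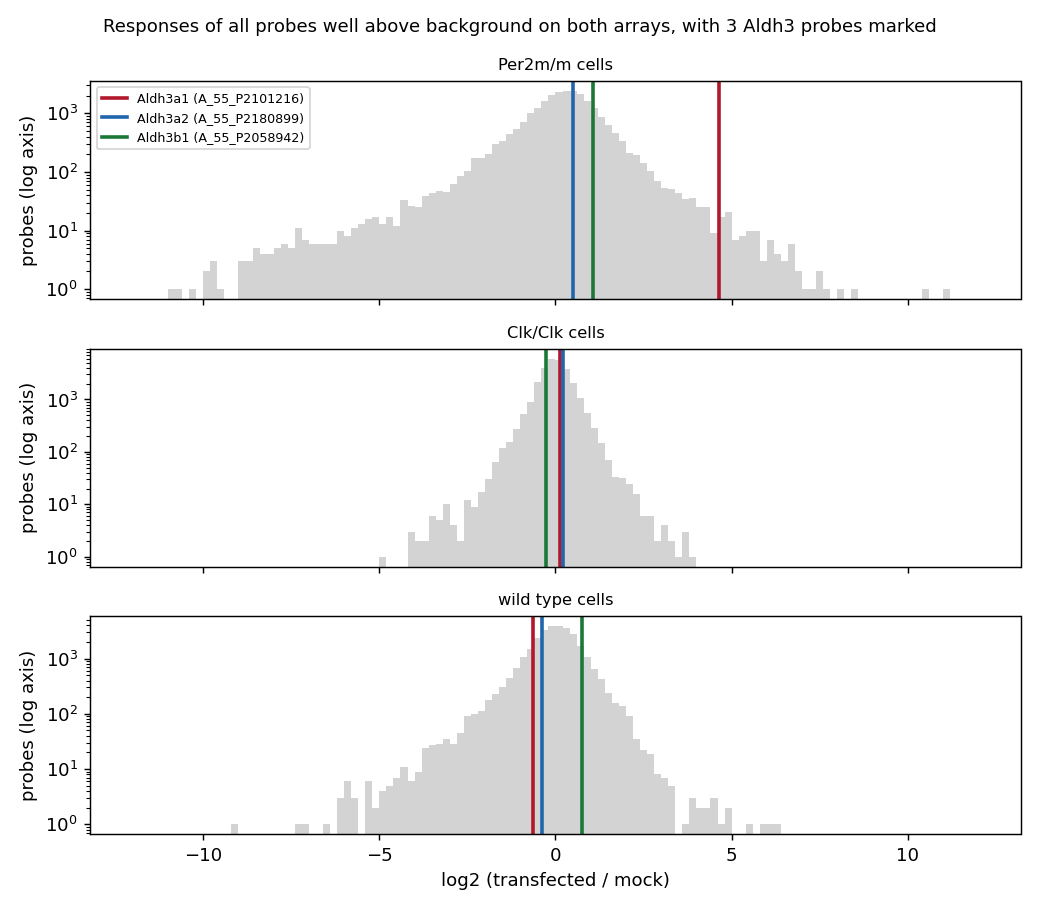
Number of probes (log axis) by response to transfection (log2 of transfected over mock) in each genotype, over the probes well above background on both arrays of the pair, with 3 Aldh3 probes as vertical lines. Aldh3a1 lies at 4.63 in the upper tail in Per2m/m cells and at 0.12 and −0.63 in Clk/Clk and wild type cells, while Aldh3a2 lies between −0.38 and 0.49 and Aldh3b1 between −0.28 and 1.06.

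An additive model of genotype and transfection over all 6 arrays (limma, Benjamini-Hochberg adjustment over 36110 probes) called none of the Aldh3 probes. It called 0.0% of all probes in each of its 3 contrasts, with 4.59% of probes at an unadjusted p under 0.05 for transfected minus mock, 2.99% for Per2m/m minus wild type and 11.2% for Clk/Clk minus wild type. Its 2 residual degrees of freedom hold array noise and any response that differs between genotypes together. For transfected minus mock the coefficient of Aldh3a1 was 1.37 ± 1.17 (SE, limma adjusted p = 0.754) by A_55_P2101216 and 5.73 ± 2.59 (limma adjusted p = 0.744) by A_55_P2065562, that of Aldh3a2 0.11 ± 0.31 (limma adjusted p = 0.915) and that of Aldh3b1 0.51 ± 0.38 (limma adjusted p = 0.744). For Per2m/m minus wild type they were 2.72 ± 1.44, 4.37 ± 3.17, 0.10 ± 0.39 and 0.61 ± 0.47 in the same order, with a limma adjusted p of 0.939 for all but Aldh3a2, which had 0.972. For Clk/Clk minus wild type they were −0.54 ± 1.44, −2.52 ± 3.17, 0.18 ± 0.39 and −0.02 ± 0.47, with limma adjusted p of 0.908, 0.790, 0.886 and 0.992. Without the transfected Per2m/m array the transfected minus mock coefficient of Aldh3a1 by A_55_P2101216 was −0.26, and its Per2m/m minus wild type coefficient was 0.28. The labels give no more than 6 RNA samples, so these p-values measure only the spread between them.

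The genes whose levels followed those of Aldh3a1 most closely over the 6 arrays, by the root mean square difference of centred levels among 12358 genes well above background on all arrays, were Car9 (0.38), Cldn9 (0.44), Rhpn2 (0.51), Mtss1 (0.54) and Slc25a17 (0.55). Car9 encodes a cell-surface carbonic anhydrase that is induced by low oxygen, and Cldn9 a tight junction protein. Their responses in Per2m/m cells lay between 4.11 for Mtss1 and 5.28 for Car9, and in Clk/Clk and wild type cells between −1.27 and 0.62. The likeness rests mainly on the transfected Per2m/m array, which all these points share.

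For Aldh3a2 the 5 nearest genes were COX3, Ttc39b, Tor1aip1, Plbd2 and Asb10, at 0.07 to 0.09, all of them with small differences between arrays. Those nearest to Aldh3b1 were Osr1, a transcription factor of mesenchyme, at 0.06, then Spata7, H3c3, Ndufa4 and Usp3 up to 0.09. Osr1 had responses of 1.05 in Per2m/m, −0.31 in Clk/Clk and 0.94 in wild type cells.

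Of the genes beside Aldh3a1 and Aldh3a2 on chromosome 11, few could be measured. Within 100 kb of a member probe there were 7 further probes, 5 of them kept, for Usp22, Tnfrsf13b and Rps13-ps5. Probes of Slc47a1 and Slc47a2 were not well above background on any array. In Per2m/m cells 17.8% of all probes were higher at 2-fold and 17.8% were lower. Of the 5, 0 were higher and 2 were lower, both of Tnfrsf13b, a receptor of B cells, and both in the background on the transfected array. One of them, A_55_P1981964, was at least 2.53-fold lower, and the other, A_55_P2169559, was too dim in mock cells to give a bound. The third and brightest Tnfrsf13b probe, A_55_P1981972, had signals of 58.3 in transfected and 64.6 in mock Per2m/m cells and a response of 0.21. The response of Usp22, a deubiquitinase, was −0.18 in Per2m/m cells. In Clk/Clk and wild type cells 0 of the 5 differed, against 7.96% and 18.4% of all probes. Counts over 5 probes of 3 genes are too small to set this locus apart.

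At the Aldh3b locus on chromosome 19 there were 21 further probes, 19 of them kept, for 13 genes. In Per2m/m cells 11 of the 19 were higher and 1 was lower, against 17.8% of all probes in each direction. These 11 were repeated probes of Chka, Gstp1, Gstp2 and Kmt5b and a probe of Ndufs8, so they do not count as separate genes. In Clk/Clk cells 2 were higher, both of Chka, and in wild type cells 0 differed, against 7.96% and 18.4% of all probes. All 4 probes of Chka, a choline kinase of phospholipid synthesis, were higher in Per2m/m cells, with responses of 2.42 to 3.21. Gstp1 and Gstp2, near-identical glutathione transferases, gave up to 1.25 and 1.16, Ndufs8, a subunit of respiratory complex I whose probe lies nearest to that of Aldh3b1, gave 1.17, and Kmt5b, a histone methyltransferase, 1.04 and 1.14. Unc93b1, a chaperone of Toll-like receptors, was at least 46.7-fold lower. Aldh3b3, a family member that the scanner output lists under an older name, was measured on all arrays by 1 of its 2 probes, with responses of 0.37 in Per2m/m, −0.05 in Clk/Clk and −0.16 in wild type cells.

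The other aldehyde dehydrogenase genes moved in both directions in Per2m/m cells, each gene read by its brightest kept probe. Of 16, 4 were higher and 7 lower at 2-fold, with a median response of 0.07, against 18.7% higher and 20.7% lower of 16718 genes and a median of 0.12. The list's median turned to −0.05 with quantile normalization. The highest were Aldh9a1, which oxidises aminoaldehydes, at 1.63 and Aldh1l2, a mitochondrial formyltetrahydrofolate dehydrogenase, at 1.60. Aldh5a1, the succinic semialdehyde dehydrogenase, was at least 99.5-fold lower and Aldh1a2 at least 9.60-fold lower. Aldh1b1, a mitochondrial enzyme, was at least 8.50-fold lower and Aldh1a3 at least 6.20-fold lower. The genes with such a bound were in the background in transfected Per2m/m cells, so they have no order among themselves. Not one of the 16 reached the 4.63 of Aldh3a1.

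In Clk/Clk cells 2 of these 16 were higher and 2 lower, with a median of −0.08 against 0.02 for all genes, of which 3.74% were higher and 4.12% lower. In wild type cells 1 was higher and 7 were lower, with a median of −0.68 against 0.00, where 7.53% of genes were higher and 11.8% lower. Aldh1a1 and Aldh1a2, which make retinoic acid, were at least 9.14-fold and at least 2.88-fold lower there, while Aldh3a2 stood at −0.38 and Aldh3b1 at 0.76.

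**Figure D4:**
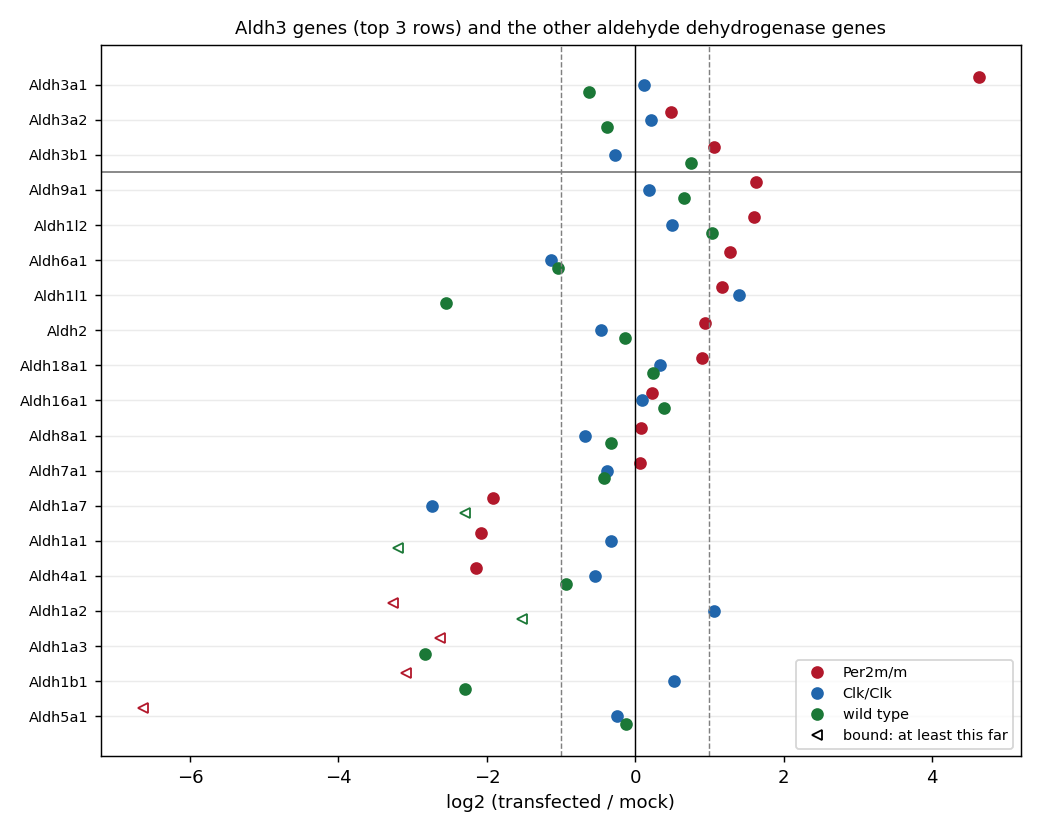
Response to transfection (log2 of transfected over mock) of 3 Aldh3 genes, above the grey line, and of 16 other aldehyde dehydrogenase genes, ordered by the Per2m/m response. Aldh3a1 is shown by probe A_55_P2101216, open triangles are bounds, and pairs measured on neither array have no point. The Per2m/m points run from at least 99.5-fold lower for Aldh5a1 to 4.63 for Aldh3a1.

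Genes listed around the supply of fatty aldehydes, the substrates of Aldh3a2 and the Aldh3b proteins, did not stand out from all genes in Per2m/m cells. Of the 7 of 10 listed genes that were kept, 1 was higher and 2 were lower in Per2m/m cells, against 18.7% higher and 20.7% lower of all genes. In each of Clk/Clk and wild type cells 1 was lower and none higher, against 4.12% and 11.8% of all genes lower. Hacl1, a peroxisomal lyase that releases fatty aldehydes, was higher at 1.14, and Far1, a fatty acyl-CoA reductase, gave 0.31. Phyh, the phytanoyl-CoA hydroxylase that acts before Hacl1, was at least 28.3-fold lower and Sphk1, a sphingosine kinase, was lower at −1.52. Agmo, Far2 and Sgpp2 were not well above background on any array.

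Genes of other routes that clear aldehydes, by reduction or by conjugation with glutathione, were higher in Per2m/m cells for 10 of 22 kept genes and lower for 3, against 18.7% higher and 20.7% lower of all genes. Their median response was 0.64 or, with dim values at their bound, 0.52, against 0.12 for all genes. Of the 10 higher genes, Akr1c12 was kept only through the transfected Per2m/m array, so that count follows in part from the filter. Akr1b7, Akr1c14 and Akr1c18 were also in the background in mock Per2m/m cells. Akr1c14, an aldo-keto reductase, was at least 28.5-fold higher and Adh7, an alcohol dehydrogenase that is active on retinol, was higher at 4.66. Glo1, which detoxifies methylglyoxal, was lower at −2.34 and Cbr1, a carbonyl reductase, at −2.07. In Clk/Clk and in wild type cells 2 were higher and 3 were lower, with medians of −0.12 and −0.18, against 3.74% higher and 4.12% lower of all genes in Clk/Clk and 7.53% higher and 11.8% lower in wild type cells. With normexp these counts were 0 higher and 0 lower in Clk/Clk and 0 higher and 2 lower in wild type cells, and the wild type median turned to 0.13 with arrays scaled to their median. Several of these genes have near-identical copies, and how far their probes read each other was not tested.

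Of the gene battery of the aryl hydrocarbon receptor (AhR), to which Aldh3a1 belongs in rodent liver, 2 of 7 kept genes were higher and 2 lower in Per2m/m cells, against 18.7% and 20.7% of all genes. Ugt1a6b, a glucuronosyltransferase with a near-identical copy, was higher at 5.41 and Tiparp, a feedback inhibitor of the receptor, at 1.87. Cyp1b1, a cytochrome P450, was lower at −7.55 and Ahrr, the receptor's repressor, at −1.97. In Clk/Clk cells 0 were higher and 2 lower, against 4.12% of all genes lower. In wild type cells 2 were higher and 0 lower, against 7.53% higher. Ugt1a6a, among those lower in Clk/Clk cells, was kept only through the mock Clk/Clk array. Cyp1a1, among those higher in wild type cells, was kept only through the transfected wild type array. Both counts thus follow in part from the filter.

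Of 17 kept genes on a list of candidate regulators of Aldh3a1 (AhR and its partners, NRF2, MYC and clock factors among them), 3 were higher and 3 lower in Per2m/m cells, close to the 18.7% and 20.7% of all genes. Myc was higher at 2.39 and Atf4 at 1.87, while Ahr itself was at least 8.82-fold lower and Per2 was lower at −1.85. In Clk/Clk cells 0 were higher and 1 lower, and in wild type cells 2 were higher and 0 lower, against 4.12% of all genes lower and 7.53% higher. With arrays scaled to their median 6 were higher in Per2m/m cells and 5 were higher in wild type cells. That scaling also moved the median response of all probes, to 0.44 for Per2m/m and 0.28 for wild type cells. The shares of all genes under it are not given, so the counts of 6 and 5 have no such comparison. The level of Per2 was −2.82 in transfected and −0.98 in mock Per2m/m cells, −3.88 in transfected and −3.91 in mock Clk/Clk cells, and −2.38 in transfected and −3.37 in mock wild type cells. Which part of Per2 or Clock is altered is not given in the labels, so these levels check no label.

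Markers of the corneal epithelium, the tissue with the most ALDH3A1, moved with the Aldh3a1 reading in part. Of its 10 listed markers 6 were kept, of which 4 were higher and 0 lower in Per2m/m cells, against 18.7% and 20.7% of all genes. Slurp1, a secreted epithelial peptide, was at least 454-fold higher, Krt14, a basal keratin, was higher at 6.70, and Krt5, the keratin partner of Krt14, gave −0.15. The summed signal of the list, over the array's 75th percentile, was 102 in transfected Per2m/m cells, against 60.6 to 71.9 on the other arrays. Most of it came from Tkt, a transketolase that many cell types express, whose Per2m/m response was 0.23. Without Tkt, left out after the values were seen, the sum was 31.7 in transfected Per2m/m cells, against 0.596 to 1.51 on the other arrays. Krt12 and Pax6, which define the corneal epithelium, and Krt4 and Gjb6 were not well above background on any array.

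General epithelial markers were well above background for 5 of 10 genes in transfected Per2m/m cells and 5 or 6 on the other arrays, and their summed signal of 0.759 in transfected Per2m/m cells was the lowest of the 6 arrays, against 0.776 to 5.71 on the others. The list moved both ways in Per2m/m cells, with 2 of 8 kept genes higher and 3 lower. Of all genes 18.7% were higher and 20.7% lower. The 2 higher genes, Cdh1 and Krt8, were kept only through the transfected Per2m/m array, so their count follows from that filter in part. Cdh1, an adhesion protein, was at least 3.24-fold higher and the keratin Krt8 at least 5.24-fold higher, both well above background in transfected Per2m/m cells alone, while the keratins Krt19, Krt7 and Krt18 were at least 87.9-fold, 22.9-fold and 15.9-fold lower. Epcam and Ocln were at background on every array. Macrophage markers were well above background for 6 of 9 kept genes in transfected Per2m/m cells and for all 9 in mock Per2m/m cells, with summed signals of 6.36 and 16.9. Of the kept macrophage markers 7 of 9 were lower at 2-fold in Per2m/m cells, 0 in Clk/Clk cells and 7 in wild type cells. Of the fibroblast markers 7 of 12 were lower in Per2m/m, 1 in Clk/Clk and 5 in wild type cells. The shares of all genes that were lower were 20.7%, 4.12% and 11.8% in the same order. Thy1, a surface protein of fibroblasts, had responses of −7.76 for Per2m/m and −3.34 for wild type cells. Postn, a matrix protein, had −7.24 for Per2m/m and −1.64 for wild type cells. The highest fibroblast marker responses in Per2m/m cells were 0.84 for S100a4 and 0.51 for Fn1. Among the macrophage markers the highest was Cd14, at 0.98 for Per2m/m and 1.01 for wild type cells. The summed fibroblast signal was 2168 in transfected and 1950 in mock Per2m/m cells, against 1411 to 2203 on the other arrays. Endothelial markers were well above background for 2 of 6 genes in transfected and 3 in mock Per2m/m cells. The counts were also 2 and 3 in wild type cells, and 3 and 2 in Clk/Clk cells. Their summed signal was 10.4 in transfected Per2m/m cells, against 6.19 to 9.06 on the other arrays. The part of these cell types in the Aldh3a1 and Aldh3b1 readings was not tested.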

How the data were processed

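Per the labels, total RNA was labelled with a low-input kit and hybridised to 6 single-colour Agilent arrays. Per the file headers, the deposited intensity came from Feature Extraction 10.7.1.1, which detrended the arrays and set surrogates for dim spots; the submitters' processing notes name 9.5.1.1. The authors' deposited table also holds intensity; its columns share a median of 23.8 and the same sorted values, and it was used as quantile-normalized. Probe coordinates are of mm9 (NCBI37). All arrays shared a scan time. Both Per2m/m arrays lay in slide row 2 and the others in row 1, so row and Per2m/m genotype cannot be told apart.

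Each array had 59305 spots, of which 85 to 125 outliers were dropped and 0 were saturated. Levels were processed signals divided by the 75th percentile of their array, as log2. Probes well above background on at least 1 array were kept. A dim array was set at the higher of its own signal and the lowest signal well above background for bounds. Of the 55681 probes, 27235 were named by accession, 3581 by symbol and 565 by synonym through a RefSeq table of GRCm38.p6. The additive fit of genotype plus transfection used limma 3.58.1 under R 4.3.3 (two-sided, Benjamini-Hochberg adjusted p under 0.05). Python 3.11.15, pandas 2.3.3 and numpy 2.4.6 did the rest, and the fit was tested on simulated data. Named genes were all members, the 5 genes most like each and genes within 100 kb. Of each list the 2 highest and 2 lowest Per2m/m responses were named, with some further genes, except for macrophage and endothelial markers. Of the macrophage markers only the highest was named, and of the endothelial markers none. The members and lists were chosen with earlier results of these data known. The number of arrays limits the precision.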

Additional observations from a re-analysis of the deposited data

Results flagged for a closer look

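Responses of opposite direction in 2 genotypes, both beyond spot noise as processed here, were seen for 3 Aldh3 probes. Each rests on 1 array per group, and no difference was tested. Under other scalings or background corrections the Clk/Clk response of Aldh3a1 (A_55_P2101216) fell as low as 0.084, against a spot noise of 0.085. The wild type response of Aldh3a2 came as near 0 as −0.065, against 0.080, so neither was beyond spot noise throughout. For Aldh3a1 by A_55_P2101216 the response in Per2m/m cells minus that in wild type cells was 5.26, and that in Clk/Clk minus wild type cells was 0.75. For Aldh3a2 the same differences were 0.87 and 0.59, with the wild type response on the lower side in both. The Aldh3b1 response in Clk/Clk minus that in wild type cells was −1.03, and that in Per2m/m minus Clk/Clk cells was 1.33. Spot noise of such a difference was 0.11 to 0.12. With 1 array per group no array could be set against repeats of its own group.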

How the results depend on the processing

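The limma count of Aldh3 probes called stayed at 0 for all 3 contrasts under all 8 alternatives, and normexp alone called other probes, 41 for Clk/Clk minus wild type, against 0. Without the transfected Per2m/m array the transfected minus mock coefficients turned to −0.26 for Aldh3a1 (A_55_P2101216) and −0.083 for Aldh3a2, and the Per2m/m minus wild type coefficients to −0.88 for Aldh3a1 (A_55_P2065562) and −0.18 for Aldh3a2. The Clk/Clk minus wild type coefficient turned to −0.31 for Aldh3a2 with arrays scaled to their median and to 0.0011 for Aldh3b1 with normexp; the cause was not tested. Scaling to the median moved the median response of all probes to 0.44 for Per2m/m and 0.28 for wild type cells. It then counted 2 Aldh3 probes at 2-fold for the wild type response, 2 for transfected Clk/Clk minus wild type and 1 for mock Clk/Clk minus wild type cells, against 1, 1 and 0. A threshold of 1.5-fold counted 3 for the wild type response, against 1, and 3 for transfected Per2m/m minus wild type cells, against 2. For mock Clk/Clk minus wild type cells it counted 1, against 0. Shares of all probes or genes at 1.5-fold or under other scalings are not given here. Such counts therefore do not set these genes apart. The Per2m/m response of Aldh3a1 (A_55_P2101216) ranged from 4.31 to 4.91. Of the other ALDH genes 4 to 6 were higher and 7 lower in Per2m/m cells over the scalings, an alternative added after the data were seen, as were those for all lists. A_55_P2065562 had no value when probes had to be well above background on all 6 arrays or with 1 probe per gene. The additive fit pairs the arrays by genotype, and no replicate number links arrays. Signals under about 17 were in the background, which limits Aldh3b2 and A_55_P2065562.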
